A study of Cardamine hirsuta with 6 samples.

Results

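The genes described here are 4 *C. hirsuta* Aux/IAA genes that carry a ChCUC1 binding peak: the matches of the *A. thaliana* genes *IAA19* (CARHR090620), *IAA26* (CARHR091710), *IAA2* (AT3G23030; CARHR098960 in *C. hirsuta*) and *IAA30* (AT3G62100; CARHR172440 in *C. hirsuta*). They were found through the published annotation that assigns each peak to its nearest gene start and that gene to an *A. thaliana* match. Each has 1 peak in the rows of that annotation used here, so the genes account for 4 of the 2432 reproducible peaks. In what follows the genes are called by the names of their *A. thaliana* matches.

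Aux/IAA proteins are short-lived repressors of the auxin response. At low auxin they bind auxin response factors (ARFs), the DNA-binding proteins of the pathway, and recruit TOPLESS corepressors, which keeps auxin-responsive genes off. Auxin joins most Aux/IAA proteins to the TIR1/AFB receptors, the proteins are then degraded, and the ARFs are released. Many Aux/IAA genes are themselves induced by auxin, which closes a negative feedback loop. ChCUC1 is a NAC transcription factor of the CUP-SHAPED COTYLEDON family, which acts at organ boundaries and, in *C. hirsuta*, at the margin of leaves that form leaflets, where auxin maxima are set up.

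The binding was measured by DNA affinity purification sequencing (DAP-seq), in which a tagged transcription factor made in a cell-free system pulls down fragments of naked genomic DNA. In the 3 ChCUC1 samples the protein was ChCUC1 with an N-terminal HaloTag, expressed from the pIX-HALO vector in wheat germ extract and held on Magne HaloTag beads. In the 3 Halo control samples, by their titles, it was the tag without ChCUC1. All 6 samples used DNA of the Oxford strain, with no other genotype and no treatment. The extraction protocol gives rosette leaves of plants aged 4 weeks as the source, while the tissue label reads seedlings. The assay shows which DNA the protein can hold in vitro, without chromatin and without partner proteins of a leaf cell. It does not measure the activity of the gene.

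Values come from 4 peak lists deposited by the authors. The reproducible list was, by its name, selected by the irreproducible discovery rate (IDR), which keeps peaks that rank alike between sets of reads. The name does not say whether these sets were replicates or random parts of the reads. The list gives 1 value per peak with no replicate error. The other 3 lists were each called on 1 ChCUC1 library against the pooled Halo control. The whole-library list used all reads of a library and held 4778 peaks. The pseudoreplicate 1 list and the pseudoreplicate 2 list used, by their names, a random part of the reads of a library, and held 3753 and 3253 peaks. The names identify the libraries of the 3 lists differently. By name, the whole-library and pseudoreplicate 2 lists share a sequencing run, and the pseudoreplicate 1 list is from a different run. The lists cannot be tied to numbered samples, and read depth is unknown.

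The peak at *IAA19* had the highest fold enrichment of the 4 in the reproducible and whole-library lists, though not in either pseudoreplicate list. In *A. thaliana*, IAA19 restrains ARF7 in the differential growth behind hypocotyl tropisms. Its peak lay on chromosome 3 from 5283647 to 5284209, in intron 1 of 2 of the gene, with the peak centre 491 bp downstream of the gene start. The fold enrichment over the Halo control, which is the ratio of ChCUC1 signal to control signal as the peak caller gives it, was 8.13, and the −log10 p-value was 390. It ranked 14 by fold enrichment among the 2432 reproducible peaks, whose median was 3.04. Among the 243 intron peaks of the annotation rows used here it ranked 3.

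The peak at *IAA26* was the other strong one, and the only one of the 4 upstream of its gene start. IAA26 is also known as PHYTOCHROME-ASSOCIATED PROTEIN 1 in *A. thaliana*. Its peak lay on chromosome 3 from 5663100 to 5663599, with its centre at -613 bp, before the gene start, in the annotation category promoter-TSS, which covers the 1000 bp before the start and the 100 bp after it. The fold enrichment was 7.38 and the −log10 p-value 249. It ranked 38 among all reproducible peaks and 8 among the 392 peaks of its category.

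The peaks at *IAA2* and *IAA30* were weaker and nearly equal to each other. *IAA2* is an early auxin-induced gene whose promoter is widely used to report auxin response in *A. thaliana*. Its peak lay on chromosome 3 from 8509628 to 8510117, in exon 1 of 2, with its centre 119 bp downstream of the gene start, the closest of the 4. The fold enrichment was 4.65 and the −log10 p-value 127, which placed it 326 among all reproducible peaks and 123 among the 671 exon peaks. *IAA30* encodes an Aux/IAA protein that in *A. thaliana* lacks the domain through which auxin triggers degradation. Its peak lay on chromosome 5 from 21177579 to 21178151, in the category around the transcript end, with its centre 1585 bp downstream of the gene start. The fold enrichment was 4.67 and the −log10 p-value 113, which placed it 323 among all reproducible peaks and 46 among the 300 peaks around transcript ends. With no replicate error on these values, the difference of 0.0138 in fold enrichment between *IAA30* and *IAA2* cannot be read as an order, and 2 other peaks lie between them.

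**Figure D1:**
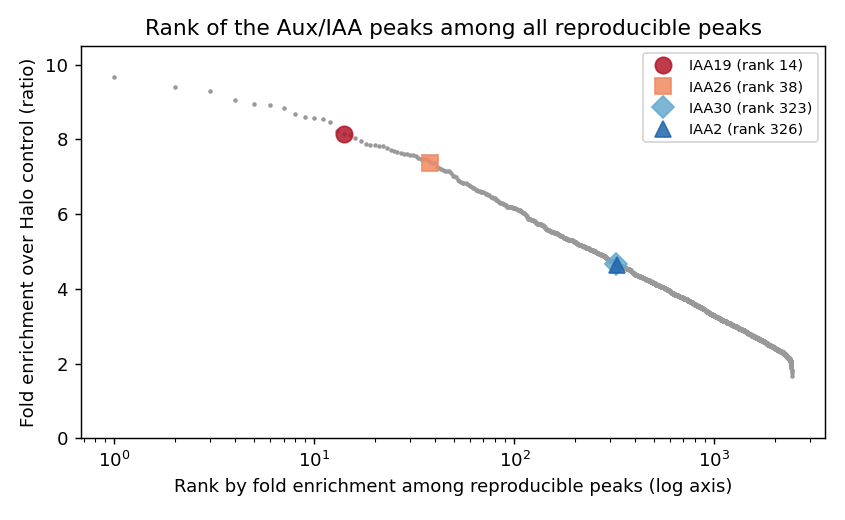
Fold enrichment over the Halo control (vertical axis, ratio) of the 2432 reproducible peaks against their rank (horizontal axis, log scale), with the 4 Aux/IAA peaks marked. *IAA19* at rank 14 and *IAA26* at rank 38 sit in the upper part of the curve, and *IAA30* at 323 and *IAA2* at 326 fall on the same place lower down.

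The 4 peaks stood alone at their genes. No other peak summit of any of the 4 lists lay within 5 kb of the 4 reproducible summits, as for 50.3% of all reproducible peaks. The nearest other reproducible peak of *IAA19* was 6412 bp away, with a fold enrichment of 3.01, and was assigned to CARHR090650. For *IAA26* it was 14220 bp away at CARHR091760, with a fold enrichment of 3.77. For *IAA2* and *IAA30* it was 43110 and 58834 bp away, beyond the median of 14.9 kb over the 2408 peaks that share a chromosome or scaffold with another peak. *IAA19* and *IAA26* lay 379 kb apart on chromosome 3 with 13 reproducible peaks between them, so they are not neighbouring genes under a shared peak. In 3 of the 4 genes the peak centre was within 1000 bp of the gene start, against 50.4% of the 1996 peaks that have a gene in the rows used here, and in 3 of the 4 it was downstream of the start, against 69.9%. With 4 genes these counts are a description only.

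Each of the 4 peaks was called in each of the 3 single-library lists, at an overlap of at least 1 bp with the reproducible peak. The share of all reproducible peaks found in each list was 98.8% for the whole-library list, 92.1% for the pseudoreplicate 1 list and 65.0% for the pseudoreplicate 2 list, and 62.5% were found in all 3. Peaks as strong as these were nearly always found: of the 326 reproducible peaks with a fold enrichment at least that of *IAA2*, 325 were called in each list, so the count of 4 says no more than the strength of the peaks does. The single-library lists come from the same experiment as the reproducible list and share the Halo control, so they are no independent test of it. Each list called 1 peak per gene and did not split it.

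*IAA19* had a fold enrichment of 8.37 in the whole-library list, 8.24 in the pseudoreplicate 2 list and 5.31 in the pseudoreplicate 1 list. The lists that share a sequencing run were thus close to each other, and the list from the other run was lower. *IAA26* had 7.01 in the whole-library list, 7.13 in the pseudoreplicate 1 list and 8.29 in the pseudoreplicate 2 list, and did not follow that split. *IAA2* had 4.62, 4.52 and 3.82 in the whole-library, pseudoreplicate 1 and pseudoreplicate 2 lists. *IAA30* had 4.84, 4.64 and 3.74 in the same order. Both weaker peaks were thus lowest in the pseudoreplicate 2 list. Over the 3 lists the mean was 7.31 ± 1.74 for *IAA19*, 7.48 ± 0.705 for *IAA26*, 4.32 ± 0.439 for *IAA2* and 4.41 ± 0.582 for *IAA30* (SD, n = 3 lists). The SD ranges of *IAA19* and *IAA26* overlap, as do those of *IAA2* and *IAA30*. The lists come from different libraries and use all or only part of the reads. This SD is therefore a spread over unlike lists and not an error between replicates.

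**Figure D2:**
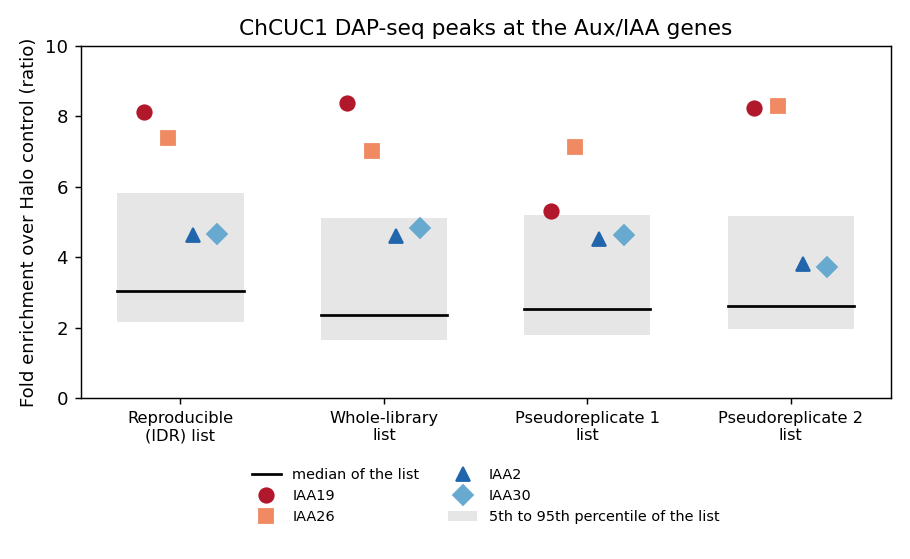
Fold enrichment over the Halo control (vertical axis, ratio) of the 4 Aux/IAA peaks in each of the 4 deposited lists; grey bars span the 5th to the 95th percentile of all peaks of a list and black lines mark its median, with no error bars because a list holds 1 value per peak. *IAA19* and *IAA26* are above the grey bar in every list, *IAA19* only just so in the pseudoreplicate 1 list, at 5.31 against 8.37 and 8.24 in the other single-library lists, and *IAA2* and *IAA30* stay together inside the bars, between 3.74 and 4.84.

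The split into a stronger and a weaker pair was present in each list, but the order within each pair was not stable. The lower value of *IAA19* and *IAA26* was 1.45 times the higher value of *IAA2* and *IAA30* in the whole-library list, 2.16 times in the pseudoreplicate 2 list, and only 1.14 times in the pseudoreplicate 1 list, where *IAA19* came close to *IAA30*. *IAA19* over *IAA26* gave a ratio of 1.19 in the whole-library list, 0.995 in the pseudoreplicate 2 list and 0.744 in the pseudoreplicate 1 list. *IAA19* thus came first in the whole-library list, *IAA26* in the pseudoreplicate 1 list, and the values in the pseudoreplicate 2 list were nearly equal. The ratio of *IAA30* to *IAA2* stayed between 0.981 and 1.05. By rank within a list, *IAA19* was 10 of 4778 peaks in the whole-library list, 16 of 3253 in the pseudoreplicate 2 list and 164 of 3753 in the pseudoreplicate 1 list. *IAA26* ranked 51, 14 and 27 in the same order.

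The drop of *IAA19* in the pseudoreplicate 1 list was unusual among the peaks. Over the 1519 reproducible peaks called in each list, the ratio of the whole-library to the pseudoreplicate 1 value had a median of 1.04, and 5% of peaks lay above 1.32. *IAA19* had a ratio of 1.58, and only 3 of the 1519 peaks had a higher one. Of the 51 peaks at least as strong as *IAA26* in the whole-library list, the other 50 had ratios from 0.854 to 1.35. The ratios of *IAA26*, *IAA30* and *IAA2* were 0.983, 1.04 and 1.02, close to the median. Between the whole-library and pseudoreplicate 2 lists the *IAA19* ratio was 1.02, and 941 of the 1519 peaks had a higher one. The library, the sequencing run and the use of part of the reads all differ between the whole-library and the pseudoreplicate 1 list, and their part in the lower *IAA19* value was not tested. This comparison was chosen after the values had been seen.

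**Figure D3:**
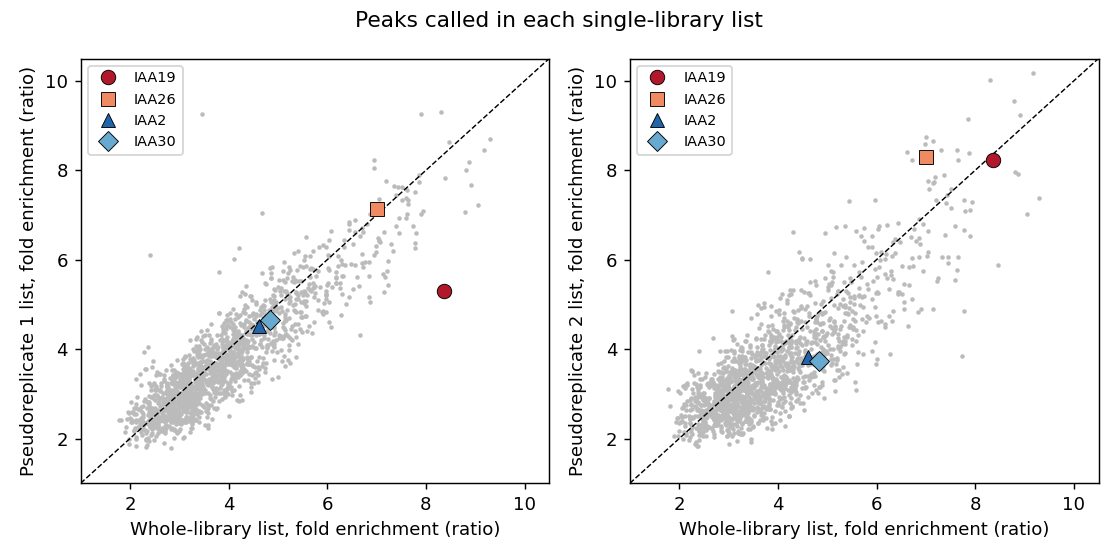
Fold enrichment (ratio, both axes) of the 1519 reproducible peaks called in each single-library list, for the pseudoreplicate 1 list (left) and the pseudoreplicate 2 list (right) against the whole-library list; grey points are peaks, coloured symbols the 4 Aux/IAA peaks, and the dashed line marks equal values. On the left *IAA19* lies well below the cloud at 8.37 against 5.31, while on the right it lies near the line at 8.37 against 8.24.

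The summits of the calls lay close together at 3 of the 4 genes in each list. The reproducible summit of *IAA19* was at 5283954, and the whole-library, pseudoreplicate 1 and pseudoreplicate 2 summits were 5, 1 and 8 bp away from it. The low *IAA19* value thus belonged to a summit at the same place. At *IAA26* they lay 1, 2 and 10 bp from the summit at 5663347, and at *IAA2* 4, 0 and 13 bp from the summit at 8509881. At *IAA30*, with its summit at 21177826, the whole-library and pseudoreplicate 1 summits were 15 and 0 bp away, whereas the pseudoreplicate 2 summit was 74 bp away, the largest shift of the 4 genes. Over the 1519 peaks called in each list, the median of the largest summit distance was 17 bp, and 90.2% of peaks had a smaller one than *IAA30*.

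The calls differed more in width than in place. The reproducible peaks of *IAA19*, *IAA26*, *IAA2* and *IAA30* were 563, 500, 490 and 573 bp wide. In the pseudoreplicate 2 list they were 390, 268, 220 and 255 bp wide, where the typical call is narrow: the median width is 196 bp there and 486.5 bp for reproducible peaks. If 2 calls had to cover at least 50% of each other to count as shared, the *IAA2* and *IAA30* calls of this list, which covered 44.9 and 44.5% of the reproducible peak, no longer counted, and 2 of the 4 genes were called in all 3 lists. At that overlap 14.6% of all reproducible peaks were called in all 3.

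**Figure D4:**
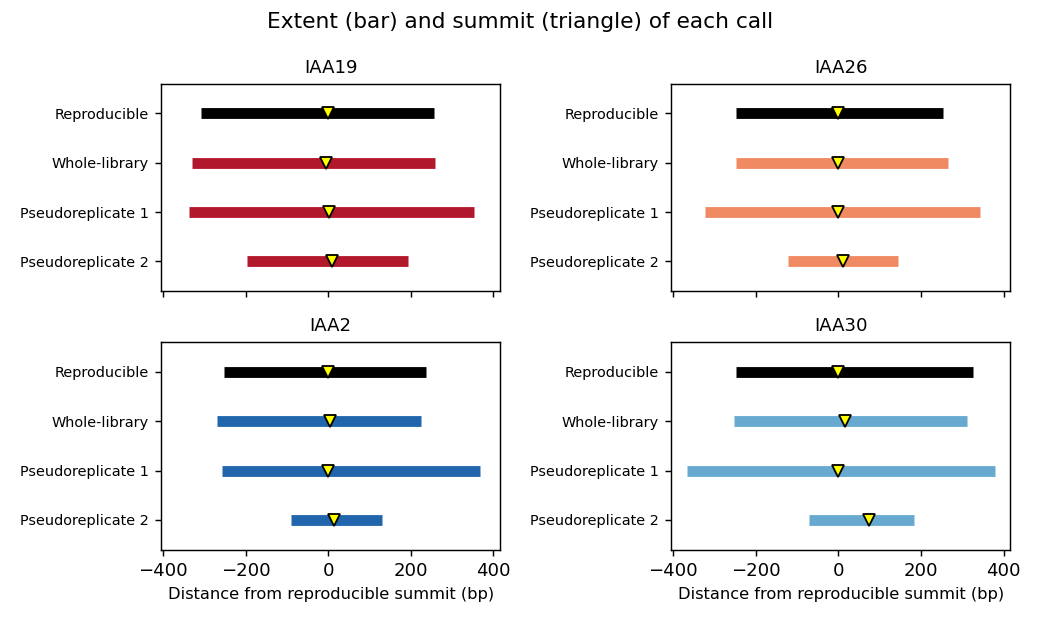
Extent (bars) and summit (triangles) of the call at each gene in the 4 lists, in bp from the reproducible summit (horizontal axis; positive values point to higher coordinates). The summits line up within 15 bp except for *IAA30* in the pseudoreplicate 2 list, at 74 bp, and the pseudoreplicate 2 calls are the narrowest at every gene.

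The weaker pair also had less margin in significance. The −log10 q-value was lowest in the pseudoreplicate 2 list for each gene, at 41.1 for *IAA19*, 30.1 for *IAA26*, 6.82 for *IAA2* and 6.60 for *IAA30*. In the whole-library list it was 139, 79.3, 42.8 and 41.9. These values grow with the number of reads behind a list as well as with enrichment, so they are not comparable between lists. *IAA19* also had a larger −log10 p-value than *IAA26* in the whole-library list, at 145 against 83.7, and in the pseudoreplicate 2 list, at 47.4 against 35.3. In the pseudoreplicate 1 list it had a smaller one, at 48.7 against 62.2.

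The other genes of the auxin response pathway were looked up in the same annotation rows. Of the 29 Aux/IAA genes of *A. thaliana*, 4 had a match with a peak and 25 did not. Of the 15 ARF genes looked up, which are not the whole ARF family, 1 did. It was the match of *ARF16* (CARHR237990), which encodes a repressing ARF. The *ARF16* peak lay on chromosome 7 from 19670064 to 19670957 in exon 3 of 4, with a fold enrichment of 2.50. It was called in 2 of the single-library lists, at 2.29 in the whole-library list and 2.94 in the pseudoreplicate 1 list. It ranked 1877 by fold enrichment, below all 4 Aux/IAA peaks. Of the 6 TIR1/AFB receptor genes and the 5 TOPLESS family genes, none had a match with a peak in these rows. The rows cover 1997 of the 2432 reproducible peaks, those with the larger −log10 p-value, and name a gene for 1996 of them. For 559 of these the rows give the gene no *A. thaliana* match, and the look-up by match could not find them. A further peak at any of the genes looked up could be among those, or among the peaks whose assignment was not used here. The match of *IAA4* is such a case: it is in the published list of genes bound in both DAP-seq and ChIP-seq, but has no peak in these rows. The total number of genes that could have been assigned a peak was not used here, so the counts are set against no expectation.

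The 4 genes differ in whether they were found, in the rows used here, among the genes listed as changed after *ChCUC1* induction. The published lists were searched by *A. thaliana* match and not by *C. hirsuta* gene. A listing could therefore belong to another *C. hirsuta* gene with the same match. *IAA2* and *IAA30*, the weaker pair, are in the published list of genes that were lower at the earliest time point after induction and in none of the later lists as far as these were used. The paper keeps the name *ChCUC1* responsive leaf genes for those changed at more than a single time point. A listing at the earliest time point alone does not meet that definition. *IAA19* and *IAA26*, the stronger pair, were found in none of the induction lists as far as these were used. They could be in rows that were not used. Aux/IAA genes without a peak in the rows used here are listed too: *IAA13* as lower at the earliest time point and *IAA3* as higher at the latest. The share of all genes with a peak that are listed was not computed, so nothing particular to the 4 genes is shown. None of the 4 genes is in the published lists of genes bound in both assays or of high-confidence ChCUC1 target genes. None has a ChIP-seq peak in the ChIP-seq rows used here. With 4 genes no relation between binding and response can be tested.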

How the data were processed

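Reads were aligned and peaks called by the authors. Bowtie, MACS2 and bedtools are listed in the submitters' processing notes. Their versions were not given in the sources used here, nor was the genome build. By their names, the 3 single-library lists were called after removal of duplicates with the Halo controls pooled and a p-value limit of 0.01. Fold enrichment (a ratio over the Halo control), the −log10 of the p-value and q-value, and the summit are the authors' deposited values. The score deposited in the reproducible list is the authors' scaled IDR score. Depth is unknown, so no counting interval was computed for a peak.

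Peaks were joined to the published peak annotation by position and matched between lists in Python (3.11.15) with NumPy (2.4.6), pandas (2.3.3) and SciPy (1.17.1). Figures were made with matplotlib (3.10.9). A peak was called in a list at an overlap of at least 1 bp, and of several the largest overlap was taken. Matching was tested on simulated data: 2 lists with 2000 and 3000 peaks, 1200 of them common to both, and 1200 were found. All simulated peaks were 400 bp wide and lay well apart. The check therefore covers the code and not calls of unlike width, as in the deposited lists. Distances run from the peak centre: for 102 of the 111 genes with several peaks, this gave a single gene start to within 2 bp. No test was run, since each list holds 1 value per peak.

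The genes named are the 4 Aux/IAA genes, any gene of 4 lists (29 Aux/IAA, 15 ARF, 6 receptor and 5 TOPLESS family genes) with a peak or a published listing as bound in both assays, and the nearest peak of each. The genes and lists were chosen with earlier results of these data known. The alternatives were other overlap rules, stricter thresholds, each single-library list left out in turn, rank by −log10 p-value, other sets of ranked peaks, and limits on the distance to the gene start. Peak sequences were planned but not analysed, because no genome sequence with the coordinates of these lists was used here.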

Additional observations from a re-analysis of the deposited data

How the results depend on the processing

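Of 40 values under the alternatives, 26 stayed within their limits, which are 1.5 times for a count or rank, the 95% exact binomial interval for a share, and no change for the order of the 4 genes, and 14 moved. The count of genes called in all 3 lists was 2 at an overlap of 50% of both peaks, where the widths of the pseudoreplicate 2 calls set the limit. It was 4 with summits within 100 bp, a rule by which 58.2% of all reproducible peaks were called in all 3 lists. It was also 4 at a −log10 q of at least 2 and in the top 50% of each list. For these 2 rules the share over all reproducible peaks was not computed. Leaving out a list could not change the count, because all 4 genes were already called in all 3 lists. The −log10 q limit could not change the count either, as the lowest value at the 4 genes was 6.60. All 4 peaks were above the median of every list, so the top 50% kept them. The limit of 3000 bp to the gene start could remove no gene, as the farthest peak centre was 1585 bp away. The number of Aux/IAA genes called in all 3 lists repeats the count above. All these settings are among the 26 that stayed and show nothing about stability. Ranked by −log10 p-value, *IAA19* came at 7 rather than 14 and *IAA26* at 67 rather than 38, and the cause was not tested. Counts and ranks have no direction, so no value could be labelled as reversed. The order of the 4 genes did change, which was counted as moved. *IAA26* came before *IAA19* in both pseudoreplicate lists, and *IAA2* before *IAA30* in the pseudoreplicate 2 list. No paired analysis was possible because replicate numbers appear in none of the lists, which also share a pooled control. The sequence search was not run.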
